A study of Mus musculus with 9 samples.

Results

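Mouse colon organoids treated for 60 weeks were compared with organoids treated for 12 weeks. Organoids are small epithelial structures grown in culture from the crypts of the gut. The comparison takes 6 of the 9 arrays of the series, chosen by the treatment length in their titles, with 3 arrays at 12 weeks and 3 at 60 weeks. Both groups were treated with inflammatory reagents, whose names the labels leave out, and differ in how long the treatment ran. The other 3 arrays come from untreated organoids at 0 weeks. Their levels do not enter the differences and are printed beside the others as a description. The model was fitted to all 9 arrays, however, so their spread enters every standard error and p-value. With only the 6 arrays compared, 3838 genes had an adjusted p under 0.05, against 5398 with all 9. The labels name no mouse strain or genotype. They also do not say whether the replicates of a group came from separate animals or cultures, so the p-values measure only the spread between these samples, which may be technical. No untreated culture of 12 or 60 weeks was analysed here, so treatment length cannot be told apart from culture age.

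Each array gave a single-colour (Cy3) fluorescence intensity for every probe. A level here is the log2 intensity relative to the 75th percentile of the array, so that a level of 0 is as bright as that percentile and a step of 1 is 2-fold. Levels of different genes come from different probes and are not compared with each other. A gene entered the test if 2 or more of the 3 arrays at either time had its probe well above background, as was so for 13798 of 20660 named genes. Differences are 60 weeks minus 12 weeks, with the standard error (SE) and the Benjamini-Hochberg adjusted p of limma over all genes tested, and a gene is said to rise or fall where that p is under 0.05.

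In all, 5398 genes (39.1%) changed between 12 and 60 weeks, 2915 higher (21.1%) and 2483 lower (18%), and the median difference of all genes tested was 0.02. Changes of at least 2-fold were found in 784 genes that rose and 979 that fell. The 3 arrays of one group all lay beyond the 3 of the other for 6599 genes (47.8%). These shares are the background against which each gene group is read. Leaving out 1 array of the 2 groups gave 3662 calls (without replicate 3 of 12 weeks) to 7087 (without replicate 2 of 12 weeks), and of the 5398 genes 5202 were also called without that replicate 2. Calls split into 2548 higher and 2920 lower when arrays were scaled on the 75th percentile of bright probes. Only 1 row of a slide held both groups (replicates 2 and 3 of 12 weeks and 1 and 2 of 60 weeks), and replicate 3 of 60 weeks was on a slide of its own. With the slide row as a block 3571 genes were called, and within the shared row 744. Both settings take the difference from the arrays of the shared row alone, replicate 2 of 12 weeks among them.

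Replicate 2 of 12 weeks stood apart from the other arrays of its group. Across genes it correlated at 0.978 and 0.977 with replicates 1 and 3, which correlated at 0.992 with each other, and the 3 arrays of 60 weeks correlated at 0.990 to 0.994 (genes are not independent replicates). The SD of the median gene among the 12-week arrays was 0.21, and 0.10 when replicate 2 was left out, against 0.15 among the 60-week arrays. Results that rest on this array are given with and without it. The epithelial label held in both groups: all 10 epithelial markers measured, among them Epcam, Cdh1 and the keratin genes Krt8, Krt18 and Krt19, were above background on every array. Their summed intensity was 1810 to 2014 times the 75th percentile at 12 weeks and 1946 to 2140 times at 60 weeks.

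The colon epithelium renews itself from stem cells at the base of its crypts, whose daughters divide and then mature into absorptive colonocytes and secretory cells such as goblet cells. Entry into the cycle is restrained by inhibitors of the cyclin-dependent kinases, and the E2F transcription factors switch on the genes of DNA synthesis when that restraint is lifted. Chronic inflammation of the colon is known for the chemokines and antimicrobial proteins that the epithelium makes and for its association with cancer.

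Among the largest falls were those of 2 adjacent genes of the cell cycle on chromosome 4. Cdkn2a encodes the kinase inhibitor p16 and, from another reading frame, the p53 regulator p19Arf, and Cdkn2b encodes the kinase inhibitor p15. Levels of Cdkn2a were 2.53, 2.70 and 2.28 on the 12-week arrays (replicates 1, 2 and 3, the order used throughout) and -6.53, -6.76 and -7.02 at 60 weeks. Cdkn2b gave 2.81, 2.97 and 2.60 at 12 weeks and -6.92, -6.80 and -7.06 at 60 weeks. Both genes were bright on every 12-week array and at background (on no array well above it) at both 60 and 0 weeks. A gene that dim has only a bound on its fold change, computed against the lowest signal called well above background on each array: Cdkn2a was at least 155-fold lower (adjusted p = 5.4e-09) and Cdkn2b at least 189-fold lower (adjusted p = 8.3e-10). A weaker second probe of each gene also fell, by 5.28 for Cdkn2a and by 7.04 for Cdkn2b.

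The genes beside this pair, chosen after its values were seen, did not show such a loss. Mtap, which recycles methionine and lies next to Cdkn2a in the order of genes tested, gave 1.51, 1.32 and 1.27 at 12 weeks and 0.92, 0.46 and 1.06 at 60 weeks (difference -0.55, adjusted p = 0.029). Zfp352, next to Cdkn2b, differed by 0.10 (adjusted p = 0.63), and Tusc1, the gene after it, by -1.22 (adjusted p = 0.012). All 3 were still above background on every 60-week array.

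**Figure D1:**
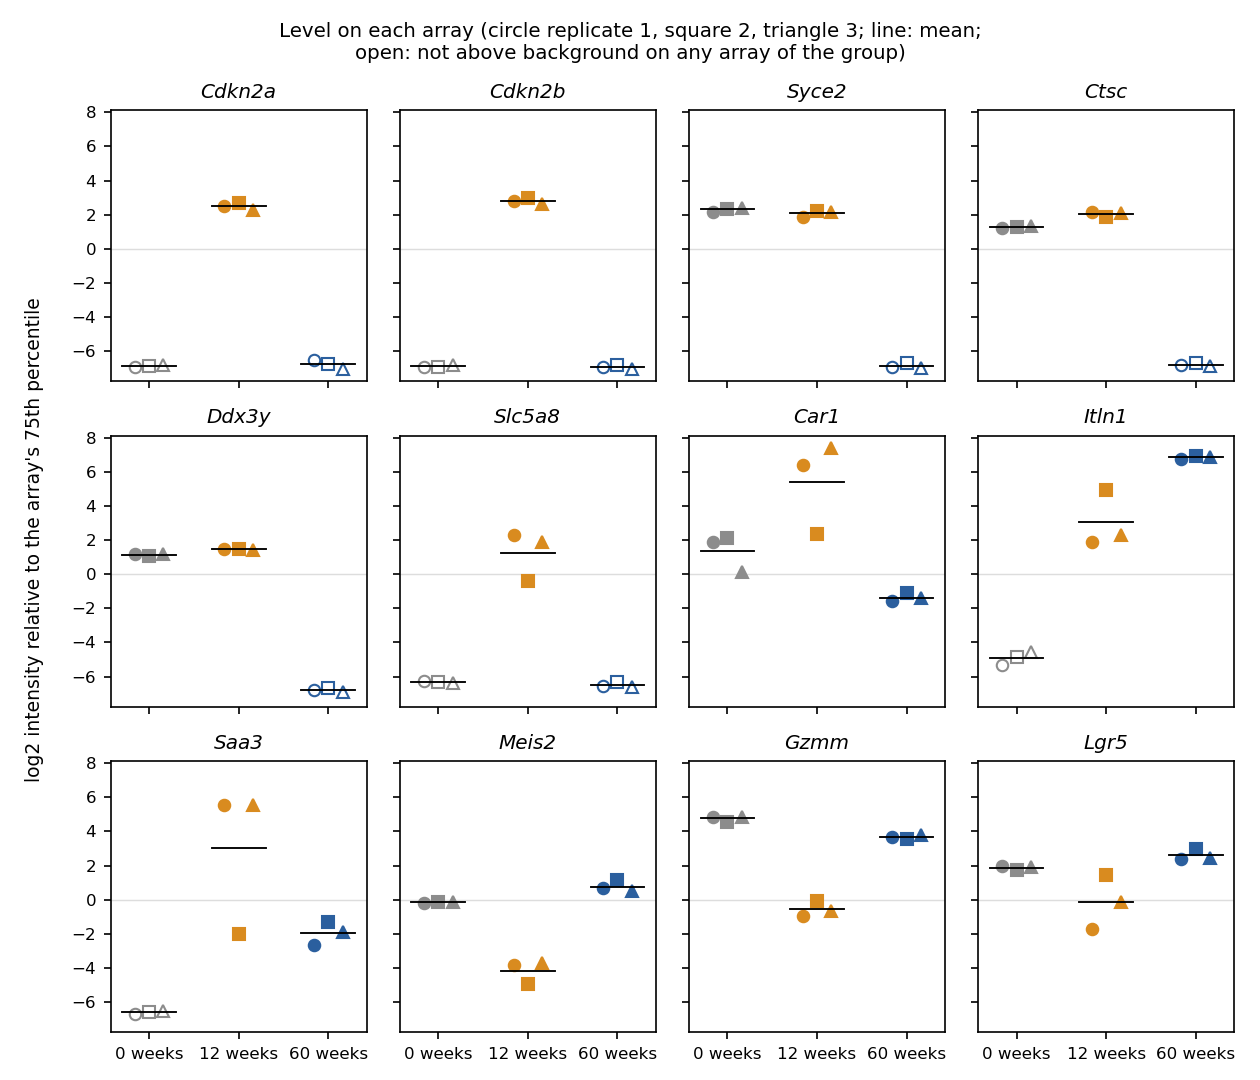
Level of 12 named genes on each of the 9 arrays, as log2 intensity relative to the array's 75th percentile. Circles, squares and triangles are replicates 1, 2 and 3, lines are group means, and open symbols mark groups in which no array was well above background. Cdkn2a and Cdkn2b are high at 12 weeks alone, Syce2, Ctsc and Ddx3y are lost at 60 weeks, and Meis2 and Gzmm are low at 12 weeks alone. The square at 12 weeks stands apart for Slc5a8, Car1, Itln1 and Saa3, and for Lgr5 all symbols of 12 weeks lie apart from each other.

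Other genes of the step from G1 to S phase moved too. Of 26 tested, 12 fell and 4 rose, against 18% and 21.1% of all genes, with a median of -0.41 against 0.02 for all genes. The number that rose was 2 without replicate 1 or 3 of 12 weeks or replicate 1 or 2 of 60 weeks. Ccnd2, which encodes the cyclin D2 partner of the kinases that p15 and p16 inhibit, went from 4.55, 4.60 and 4.36 to 2.32, 1.99 and 2.32. All 60-week arrays thus lay below all 12-week arrays, by 2.29 ± 0.13 on average (adjusted p = 1.0e-05). Ccnd1, encoding cyclin D1, fell by 0.85 (adjusted p = 0.00052). E2f1, encoding the E2F factor of S-phase entry, read 1.17, 1.33 and 1.49 at 12 weeks and -0.02, -0.16 and 0.17 at 60 weeks, and fell by 1.33 ± 0.12 (adjusted p = 0.00015). Mycn, encoding a transcription factor of the MYC family, was above background on every 12-week array (-0.83, -2.44 and -1.02) and on none at 60 weeks, at least 10.1-fold lower (adjusted p = 2.2e-05). Cdkn1a, the p21 kinase inhibitor gene, and Myc did not pass: Cdkn1a differed by 0.12 (adjusted p = 0.56) and Myc by -0.04 (adjusted p = 0.89).

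Genes of DNA replication fell across its steps, from the opening of origins to the packaging of new DNA. Of 57 tested, 39 fell, 1 rose and 17 did not pass, against 18% of all genes lower, and the list's median difference was -0.61. The median level of the list was 2.65, 2.41 and 2.65 at 12 weeks and 1.73, 1.91 and 2.11 at 60 weeks, so that each 60-week array lay below each 12-week array. For 42 of the 57 genes the groups did not overlap, against 47.8% of all genes tested. Without replicate 2 of 12 weeks 41 fell, and with the slide row as a block 41. Within the shared row, with 2 arrays against 2, from which the row block also takes its difference, 12 fell.

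The printed windows show where E2F-type sequences lie in these genes. E2F factors bind sites that resemble TTTGGCGC, TTTCCCGC, TTTGGCGG or TTTCGCGC, and each RefSeq promoter window (build GRCm38.p6, 250 bases before to 50 after the gene's start, 5′ to 3′ on the gene's strand) was searched for these letters on both strands. The 5 genes are those with the lowest adjusted p among the replication genes that fell and hold a match, and capitals mark the match. Pola1 (chrX:93632106-93632405, minus strand) encodes the catalytic subunit of DNA polymerase alpha, Clspn (chr4:126556730-126557029, plus strand) the checkpoint adaptor claspin, and Chaf1a (chr17:56040166-56040465, plus strand) a subunit of the chromatin assembly factor. Mcm5 (chr8:75109259-75109558, plus strand) encodes a subunit of the replicative helicase and Pole2 (chr12:69228141-69228440, minus strand) the second subunit of DNA polymerase epsilon.
Pola1: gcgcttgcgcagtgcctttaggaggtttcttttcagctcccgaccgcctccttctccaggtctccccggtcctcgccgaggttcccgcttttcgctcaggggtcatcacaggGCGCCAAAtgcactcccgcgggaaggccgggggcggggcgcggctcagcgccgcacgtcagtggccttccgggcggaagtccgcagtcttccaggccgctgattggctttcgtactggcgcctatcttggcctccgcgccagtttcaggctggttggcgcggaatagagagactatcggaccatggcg
Clspn: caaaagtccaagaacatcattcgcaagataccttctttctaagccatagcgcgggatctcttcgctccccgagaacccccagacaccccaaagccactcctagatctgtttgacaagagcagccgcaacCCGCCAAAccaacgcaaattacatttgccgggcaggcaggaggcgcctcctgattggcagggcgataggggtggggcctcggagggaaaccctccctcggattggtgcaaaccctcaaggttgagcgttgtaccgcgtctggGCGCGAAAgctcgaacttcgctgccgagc
Chaf1a: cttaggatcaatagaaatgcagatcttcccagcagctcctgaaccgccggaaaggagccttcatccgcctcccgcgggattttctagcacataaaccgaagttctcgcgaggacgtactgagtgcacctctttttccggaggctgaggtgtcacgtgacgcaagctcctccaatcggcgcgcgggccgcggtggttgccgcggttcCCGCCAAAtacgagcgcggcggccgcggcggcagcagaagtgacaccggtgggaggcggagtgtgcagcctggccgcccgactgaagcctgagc
Mcm5: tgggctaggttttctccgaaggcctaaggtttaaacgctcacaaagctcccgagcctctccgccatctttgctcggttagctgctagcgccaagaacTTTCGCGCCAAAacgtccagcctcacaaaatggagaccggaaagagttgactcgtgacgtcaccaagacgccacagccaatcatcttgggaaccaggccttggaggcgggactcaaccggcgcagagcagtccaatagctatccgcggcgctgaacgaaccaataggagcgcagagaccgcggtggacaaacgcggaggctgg
Pole2: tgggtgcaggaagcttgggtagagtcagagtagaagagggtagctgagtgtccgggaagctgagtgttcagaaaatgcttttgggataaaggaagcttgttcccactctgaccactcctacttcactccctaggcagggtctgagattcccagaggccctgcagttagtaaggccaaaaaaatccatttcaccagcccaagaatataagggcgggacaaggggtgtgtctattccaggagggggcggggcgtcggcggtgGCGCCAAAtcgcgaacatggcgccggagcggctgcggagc
In Clspn there are 2 separate matches, and in Mcm5 matches to TTTCGCGC and, on the other strand, TTTGGCGC overlap. Of all 32851 windows 777 held a match (2.37%), and of the 11033 tested genes with a window 506 did (4.59%). Of the replication genes 23 of 47 with a window did (48.9%). The count was 15 of 30 in those that fell and 8 of 17 in those that did not. A match is a run of letters in this window, and binding was not measured.

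Pole, the catalytic subunit gene of DNA polymerase epsilon, the leading-strand enzyme, had levels of 2.65, 2.40 and 2.63 at 12 weeks and 0.96, 0.97 and 1.30 at 60 weeks. The groups stood far apart relative to their spread, a fall of 1.48 ± 0.13 (adjusted p = 9.9e-05). Pola1 went from 1.68, 1.44 and 1.66 to -0.21, -0.10 and 0.44, a fall of 1.55 ± 0.19 (adjusted p = 0.00057). Cdc45, a part of the helicase complex that unwinds the fork, went from -1.32, -1.17 and -1.14 to -2.19, -2.50 and -2.23, a fall of 1.10 ± 0.11 (adjusted p = 0.00020). In each of these 3 genes the lowest 12-week array was above the highest 60-week array. Clspn fell by 1.27 (adjusted p = 0.00058), Chaf1a by 1.16 (adjusted p = 0.00060), and Mcm2, a helicase subunit, by 0.91 (adjusted p = 0.0020). Pcna, the sliding clamp of the polymerases, read 5.90, 5.80 and 6.01 against 4.90, 4.90 and 5.29, and Rrm2, which makes deoxynucleotides, 4.28, 4.46 and 4.28 against 3.63, 3.84 and 3.75. Both fell, Pcna by 0.87 (adjusted p = 0.0013) and Rrm2 by 0.60 (adjusted p = 0.0025). Orc3, a subunit of the origin recognition complex named after its values were seen, was the 1 gene of the list that rose (0.68, adjusted p = 0.0061). Among the 37 members outside the chromosomes described further on as shifted, 26 fell and 0 rose.

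**Figure D2:**
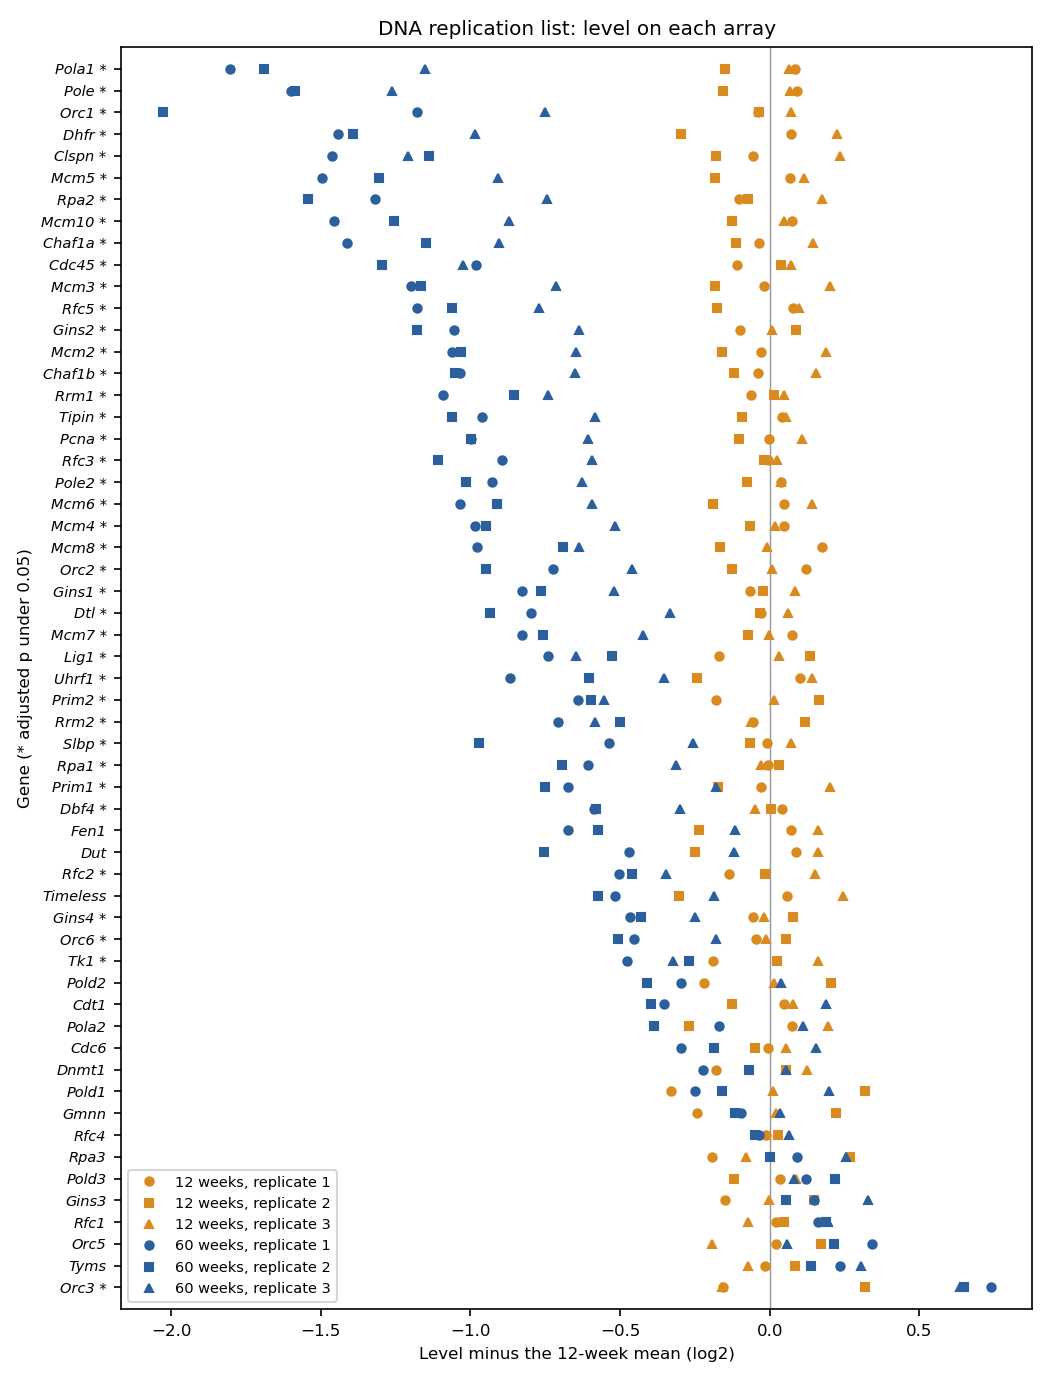
Level of each of the 57 DNA replication genes on the 6 arrays, minus the gene's 12-week mean (log2), ordered by the difference; orange is 12 weeks, blue is 60 weeks, the symbol gives the replicate, and an asterisk marks an adjusted p under 0.05. Blue symbols lie left of the orange ones for most genes, replicate 3 of 60 weeks often nearest to them, and Orc3 at the bottom is the 1 gene called higher.

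Most mitotic genes did not pass, but falls outnumbered rises. Of 64 tested, 18 fell and 1 rose, against 18% and 21.1% of all genes, with a median of -0.22. Without replicate 2 of 12 weeks 18 fell and 6 rose. With quantile normalization 21 fell, and with the slide row as a block 21. Mybl2 and Foxm1 encode transcription factors of the G2 and M phase programme. Mybl2 went from 3.40, 3.11 and 3.51 to 1.95, 1.78 and 2.36 (-1.31 ± 0.17, adjusted p = 0.00078) and Foxm1 from 1.37, 1.58 and 1.53 to 0.61, 0.77 and 0.65 (-0.81 ± 0.10, adjusted p = 0.00053). Their groups did not overlap. Smc2, a condensin subunit, fell by 0.92 (adjusted p = 0.00068), Nuf2, of the kinetochore, by 0.88 (adjusted p = 0.0022), and the spindle checkpoint gene Mad2l1 by 0.64 (adjusted p = 0.0032). Mki67, the proliferation marker, and Ccnb1, the mitotic cyclin, did not pass. Mki67 read 4.32, 4.81 and 4.57 at 12 weeks and 4.01, 4.52 and 4.32 at 60 weeks, with overlapping groups (-0.28, adjusted p = 0.22), and Ccnb1 differed by -0.11 (adjusted p = 0.58).

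Of 38 DNA repair genes tested 17 fell, 3 rose and 18 did not pass, with a median of -0.42. Of all genes 18% were lower and 21.1% higher. The list takes in recombination, mismatch repair, checkpoint kinases and the Fanconi anaemia pathway, which repairs crosslinked strands. The Fanconi genes Fanca, Fancb and Fanci fell by 1.17 (adjusted p = 0.00033), 1.32 (adjusted p = 0.00034) and 0.87 (adjusted p = 0.00075). Rad54b, which acts in recombination, fell by 1.22 (adjusted p = 0.00051).

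Among targets of the transcription factor p53, rises outnumbered falls. Of 28 tested, 12 rose and 1 fell, against 21.1% of all genes higher, and the median was 0.26. Psrc1, a microtubule protein gene, was 3.1, 3.72 and 3.25 at 12 weeks and 4.60, 4.55 and 4.54 at 60 weeks, a rise of 1.20 ± 0.16 (adjusted p = 0.00087). Every 60-week array was above every 12-week array. Sesn1, a stress-response gene, rose by 0.93 (adjusted p = 0.0022), the damage-recognition gene Xpc by 0.78 (adjusted p = 0.0016) and the lesion-bypass polymerase gene Polk by 0.47 (adjusted p = 0.011), while Tigar, a regulator of glycolysis, fell by 0.48 (adjusted p = 0.016). Tigar's call was lost without replicate 1 (adjusted p = 0.052) or 3 (adjusted p = 0.061) of 12 weeks and without replicate 1 (adjusted p = 0.057) or 2 (adjusted p = 0.055) of 60 weeks. The count for the list was not stable. It was 5 without replicate 1 of 12 weeks, 4 without replicate 3 of 12 weeks, 5 without replicate 1 of 60 weeks, 6 without replicate 2 of 60 weeks, 5 with the row block and 7 with quantile normalization, where the median fell from 0.26 to 0.08. Trp53 itself, the gene of p53, read 0.20, -0.01 and -0.04 against -0.28, -0.34 and -0.09 and did not pass (-0.28, adjusted p = 0.094).

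Cdkn2a and Cdkn2b were among 234 genes that were above background on all 3 arrays at 12 weeks and on none at 60 weeks. Of these 234, 71 were above background on all 3 arrays at 0 weeks and 128 on none. The median bound was at least 5.05-fold lower. In the other direction 77 genes were above background on all 3 arrays at 60 weeks and on none at 12 weeks, with a median bound of at least 2.39-fold.

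Several of the lost genes had been bright both at 0 and at 12 weeks. Syce2, which encodes a protein of the synaptonemal complex of meiotic chromosomes, read 2.18, 2.31 and 2.41 at 0 weeks, 1.85, 2.23 and 2.18 at 12 weeks and background levels of -6.94, -6.72 and -7.0 at 60 weeks, at least 116-fold lower than at 12 weeks (adjusted p = 2.7e-09). Ctsc encodes cathepsin C, the lysosomal protease that activates granule proteases. It read 1.22, 1.26 and 1.31, then 2.13, 1.85 and 2.12, then -6.82, -6.71 and -6.87, at least 112-fold lower (adjusted p = 8.3e-10). Fam149a read 2.32, 2.95 and 2.33 at 12 weeks and -6.80, -6.08 and -6.89 at 60 weeks, at least 158-fold lower (adjusted p = 8.9e-08). In all 3 genes every 60-week array was at background.

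Other lost genes had been low or at background at 0 weeks. B4galt4, a galactosyltransferase gene, went from 2.53, 1.97 and 2.84 at 12 weeks to background, at least 149-fold lower (adjusted p = 1.5e-06). Rtl8b and Rtl8c are members of a family on chromosome X derived from retrotransposon Gag sequences. Rtl8c read 1.77, 1.79 and 1.46 at 12 weeks and -6.90, -6.73 and -7.04 at 60 weeks, at least 87.3-fold lower (adjusted p = 2.7e-09), and Rtl8b was at least 91.3-fold lower (adjusted p = 1.3e-06). Both were at background at 0 weeks. Since members of this family are alike in sequence, how far their probes share signal is uncertain. The gene between them, Rtl8a, named after its values were seen, stayed above background on every array (-0.51, adjusted p = 0.11).

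In some places a neighbour was lost too, and in others it was not. The following neighbours in the order of genes tested were looked up after the values of the lost genes were seen. Beside Ctsc on chromosome 7 lies Rab38, which encodes a trafficking GTPase. It went from 1.65, 1.13 and 1.48 to -3.45, -5.02 and -2.46 (-5.06 ± 0.54, adjusted p = 0.00028), where 2 of the 3 arrays were above background. The next genes outward, Grm5 and Tmem135, differed by 0.48 (adjusted p = 0.24) and 0.18 (adjusted p = 0.49). Beside Fam149a on chromosome 8, Cyp4v3 was at least 19.6-fold lower (adjusted p = 2.7e-06), while Tlr3 on the other side differed by -0.96 (adjusted p = 0.0051). Beside B4galt4, Upk1b went from -1.95, -3.76 and -1.70 to -6.62, -6.08 and -5.79 (adjusted p = 0.00085). Arhgap31 on the other side differed by -0.56 (adjusted p = 0.43). Syce2 lies between Farsa (-0.43, adjusted p = 0.032) and Gcdh (-0.76, adjusted p = 0.0014), which were still bright at 60 weeks.

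Among genes measured in both groups, the largest falls were spread over many functions. Car1, a carbonic anhydrase of colonocytes described further on, was among them. Pxdn, a peroxidase of the basement membrane, went from 2.11, 1.87 and 1.67 to -4.21, -5.82 and -4.19 (-6.62, adjusted p = 1.2e-05), although a second probe fell by only 1.76. Rhox5, a homeobox gene of chromosome X, read 4.46, 6.12 and 5.18 against -0.44, -0.05 and -0.44 (-5.57, adjusted p = 2.0e-05). Ddah1, which breaks down an inhibitor of nitric oxide synthase, read 1.92, 1.87 and 1.92 against -3.11, -3.52 and -3.63 (-5.32, adjusted p = 9.2e-08). These genes were picked among those whose groups do not overlap, so their separation is set by the choice. For Rhox5 and Ddah1 the 12-week arrays were also above the 0-week arrays, at 0.24 to 0.73 and -4.49 to -4.25. Sdr42e1, of the short-chain dehydrogenase family, fell by 5.31 (adjusted p = 6.1e-08). F2r, the thrombin receptor gene, fell by 5.18 (adjusted p = 1.6e-05), as did Decr1, a reductase of fatty acid oxidation, by 5.18 (adjusted p = 4.3e-06). Plxdc2 fell by 6.16 (adjusted p = 0.00028), and fell by 5.30 without replicate 1 of 60 weeks. Pxdn and Plxdc2 were well above background on 2 of the 3 arrays of 60 weeks.

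Several of the largest rises took a gene that was low at 12 weeks back towards, or past, its level at 0 weeks. Meis2, a homeobox transcription factor gene, started from 0-week levels of -0.18, -0.14 and -0.16, read -3.82, -4.94 and -3.72 at 12 weeks and came to 0.67, 1.15 and 0.49 at 60 weeks (4.93 ± 0.31, adjusted p = 1.5e-05). Gzmm, encoding a granzyme, read 4.88, 4.58 and 4.86, then -0.95, -0.08 and -0.68, then 3.65, 3.56 and 3.79 (4.24 ± 0.21, adjusted p = 4.2e-06). In both, the 12-week arrays were the lowest. Pthlh, which encodes the parathyroid hormone-related peptide, rose by 3.59 ± 0.13 (adjusted p = 7.6e-07), and Epor, the erythropoietin receptor gene, by 3.53 (adjusted p = 4.5e-05). The homeobox genes Hoxc6, Isl2 and Hoxd10 were at background on all 12-week arrays and at least 32.1-fold (adjusted p = 1.6e-06), 22.6-fold (adjusted p = 5.8e-07) and 6.78-fold (adjusted p = 4.8e-05) higher at 60 weeks. Khdc1a, Adgra1 and Megf6, also at background at 12 weeks, were at least 17.8-fold, 10.2-fold and 9.30-fold higher.

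Other rises also went above both earlier times, as had those of Meis2, Pthlh and Epor. Sting1, the gene of the adaptor that signals from cytosolic DNA, was -0.37, 0.42 and -0.25 at 12 weeks and 3.55, 3.48 and 3.76 at 60 weeks, against -0.07, 0.03 and -0.05 at 0 weeks. It rose by 3.66 ± 0.20 (adjusted p = 6.6e-06). Like the other largest rises it was picked among genes whose groups do not overlap. Raet1e, a stress ligand for the NKG2D receptor of killer lymphocytes, read 0.20, -0.41 and -0.25 against 3.69, 3.58 and 3.86 (3.87 ± 0.17, adjusted p = 2.2e-06). Pf4, a chemokine best known from platelets, rose by 4.12 (adjusted p = 2.1e-05), and Insl6, of the insulin family, by 4.26 (adjusted p = 0.00012). Slc26a9, an anion channel gene, rose by 3.51 (adjusted p = 0.0056), or by 4.45 without replicate 2 of 12 weeks, which read -1.16 beside -4.15 and -3.81. Tmprss11e, a membrane serine protease gene, rose by 3.49 (adjusted p = 0.00024).

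Whole chromosomes also differed between the groups. The median gene of chromosome 10 was 0.35 higher at 60 weeks, with 299 of 640 genes higher (46.7%) and 53 lower, and that of chromosome 19 was 0.44 higher, with 245 of 488 higher (50.2%) and 34 lower. Medians of the other chromosomes except Y lay between -0.05 and 0.08, the highest of them that of chromosome 17, which was 0.0 with quantile normalization. The shift was present on each 60-week array, at 0.35, 0.34 and 0.41 for chromosome 10 and 0.43, 0.41 and 0.47 for chromosome 19 over genes above background on all arrays. It ran along the whole chromosome: in each 1 of 5 equal stretches by gene order the medians were 0.31 to 0.45 on chromosome 10 and 0.35 to 0.48 on chromosome 19. Without any filter on dim probes the medians were 0.18 and 0.25. Chromosomes 4, 5, 12 and 14, whose genes stood above their 0-week level on the arrays of both treated groups, had medians of -0.04 to -0.01 between 12 and 60 weeks.

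**Figure D3:**
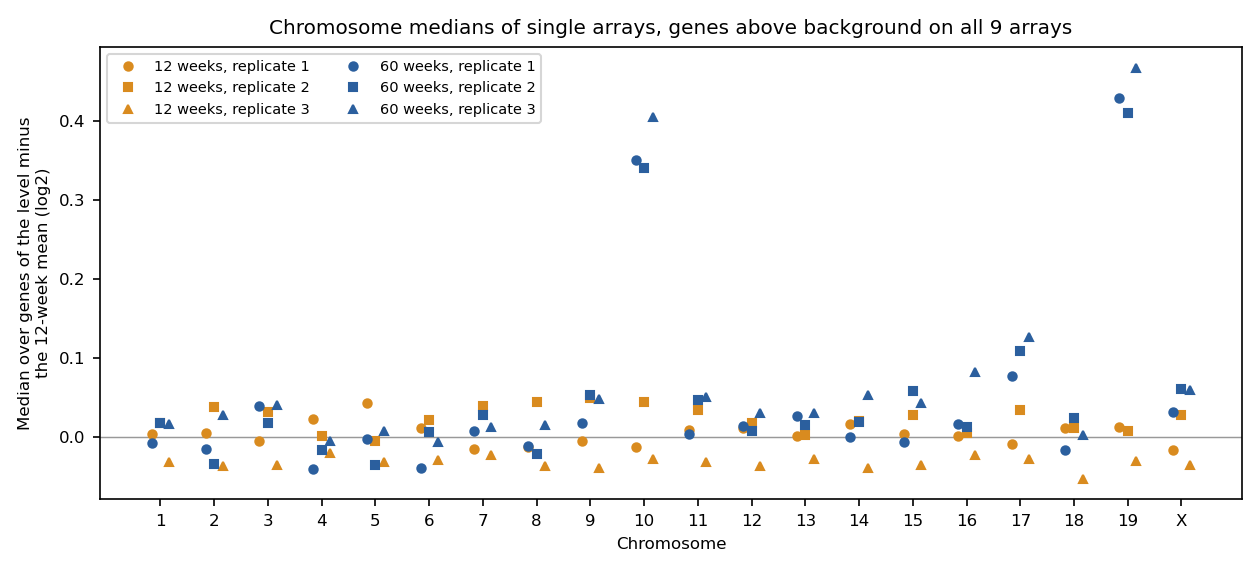
Median over the genes of each chromosome of the level on 1 array minus the gene's 12-week mean (log2), for genes above background on all 9 arrays; orange is 12 weeks, blue is 60 weeks, and the symbol gives the replicate. The 3 arrays of 60 weeks stand at 0.34 to 0.47 on chromosomes 10 and 19 and near 0 on most others, with chromosome 17 slightly raised.

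Of 8 listed Y-linked genes 2 could be tested, Ddx3y and Uty, and both were lost at 60 weeks. The others, among them Kdm5d and Eif2s3y, were too dim to be tested. Ddx3y, which encodes an RNA helicase, read 1.46, 1.49 and 1.43 at 12 weeks, above its 0-week levels of 1.18, 1.05 and 1.20, and -6.79, -6.65 and -6.93 at 60 weeks, all at background, at least 75.2-fold lower (adjusted p = 8.3e-10). Uty, a histone demethylase relative, was above background on the 3 arrays of 12 weeks and on none at 60 weeks, at least 4.72-fold lower (adjusted p = 0.0074). Its call was lost with normexp background correction (adjusted p = 0.099). On chromosome Y 7 genes were tested in all, listed or not, and 6 fell. Of the 6, 4 (Gm20736, Gm20822, Gm20877 and Sly, named after their values were seen) belong to families of near-identical copies and are uncertain. The loss was seen on all 3 arrays of 60 weeks.

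Inflammatory genes changed in both directions between 12 and 60 weeks. Of 22 chemokine and cytokine genes tested, 7 rose and 4 fell, with a median of 0.34. Of 28 genes of the NF-kB pathway and its targets, 6 rose and 3 fell (1 without replicate 1 of 60 weeks), with a median of -0.04, and of 24 antimicrobial defence genes 7 rose and 6 fell, with a median of -0.31. Called in either direction were thus 11 of 22, 9 of 28 and 13 of 24, against 39.1% of all genes. The count of defence genes lower was 11 without replicate 2 of 12 weeks, 3 without replicate 1, 2 without replicate 3, and 3 without replicate 1 or 2 of 60 weeks.

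Among the secreted signals, Il23a and Ltb rose. Il23a encodes a subunit of interleukin 23, which supports T cells that make interleukin 17, and went from -4.55, -3.44 and -4.96 to -0.62, -0.81 and -0.77 (3.58 ± 0.40, adjusted p = 0.00037). Ltb, encoding lymphotoxin beta, went from 0.91, 1.38 and 0.38 to 3.30, 4.35 and 3.46 (2.81 ± 0.34, adjusted p = 0.00057). Ccl5, a chemokine for T cells, went from -2.85, -3.29 and -3.13 to -0.58, -0.38 and -0.51 (2.60 ± 0.14, adjusted p = 8.1e-06). In all 3 every 60-week array was above every 12-week array, and the 12-week arrays of Ccl5 were close to those of 0 weeks (-3.33, -3.46 and -3.08). Csf2, a growth factor of granulocytes and macrophages, rose by 1.55 (adjusted p = 0.0084) and Tnf, the tumour necrosis factor gene, by 0.55 (adjusted p = 0.013). The call of Tnf was lost without replicate 3 of 12 weeks (adjusted p = 0.0502).

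Chemokines for neutrophils and monocytes fell in 3 cases. Ccl2, a monocyte attractant, went from 1.67, -0.23 and 0.60 to -4.04, -3.38 and -2.43 (-3.96 ± 0.51, adjusted p = 0.00075), and Cxcl2 from 0.47, -0.78 and -0.23 to -2.07, -2.06 and -1.60 (-1.73 ± 0.29, adjusted p = 0.0025). Cxcl5 went from 8.72, 7.70 and 8.23 to 7.01, 7.15 and 7.36 (-1.05 ± 0.23, adjusted p = 0.0093). For all 3 the groups did not overlap, and the 60-week arrays still lay above the 0-week arrays. Ptgs2, the inducible enzyme of prostaglandin synthesis, followed the same order, with 0-week levels of 0.07 to 0.31, then 3.96, 3.46 and 3.59, then 2.61, 2.27 and 2.28 (-1.28 ± 0.16, adjusted p = 0.00067). Cxcl1, the NF-kB inhibitors Nfkbia and Tnfaip3, and Nos2, the inducible nitric oxide synthase, did not pass, with differences of -0.35 (adjusted p = 0.37), -0.01 (adjusted p = 0.97), -0.11 (adjusted p = 0.67) and 0.02 (adjusted p = 0.97). Of the NF-kB pathway itself, Nfkb2, a subunit of the non-canonical arm, rose by 0.81 (adjusted p = 0.00034), Birc2, an inhibitor of apoptosis that regulates that arm, by 0.72 (adjusted p = 0.00041), Map3k8, a kinase of the response, by 0.95 (adjusted p = 0.0096) and the transcription factor gene Irf1 by 0.79 (adjusted p = 0.0071). Nfkb2 is on chromosome 19.

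Genes of defence proteins moved in both directions. S100a9, a subunit of calprotectin, which withholds metals from microbes, read 6.50, 5.0 and 6.75 at 12 weeks and 1.93, 2.54 and 2.22 at 60 weeks (-3.85 ± 0.41, adjusted p = 0.00029). Slpi, a protease inhibitor of mucosal surfaces, read 4.79, 4.26 and 4.38 against 1.96, 2.06 and 2.27 (-2.38 ± 0.21, adjusted p = 0.00011). Both groups of arrays were separate for both genes. The lectin Itln1 went the other way, from 1.92, 4.95 and 2.32 to 6.77, 6.91 and 6.86 (3.79 ± 0.68, adjusted p = 0.0036), or by 4.73 without replicate 2 of 12 weeks. Reg3g, a lectin that kills bacteria, went from -3.48, -4.19 and -4.01 to -2.56, -2.78 and -1.29 (1.68, adjusted p = 0.0078). Ang4, an antimicrobial ribonuclease, rose by 0.74 (adjusted p = 0.0016) and Nod2, a sensor of bacterial cell walls, by 0.64 (adjusted p = 0.0043). Lcn2, which withholds iron from bacteria, and Duoxa2, the maturation factor of a peroxide-making oxidase, did not pass (-0.23, adjusted p = 0.74, and -0.27, adjusted p = 0.44).

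For the next defence genes the call turned on single arrays. Saa3, an acute-phase protein, read 5.58, -2.0 and 5.56 at 12 weeks and -2.67, -1.30 and -1.89 at 60 weeks. Its replicate 2 lay among the 60-week arrays, the difference of -5.0 did not pass (adjusted p = 0.053), and without that array the gene was called lower (adjusted p = 4.8e-06). S100a8, the partner of S100a9, read 2.29, -0.81 and 3.36 against -1.19, -0.53 and -0.02 and likewise passed only without it (adjusted p = 0.085 with and 0.00035 without). Reg3b, dim at both times, was called lower (adjusted p = 0.037), a call that 16 of 23 alternatives did not give.

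Interferon-stimulated genes, which respond to interferon and viral nucleic acid, were called less often than all genes (39.1%). Of 37 tested, 6 rose and 2 fell, against 21.1% and 18% of all genes, with a median of 0.35. Oasl1 went from 4.50, 5.10 and 4.61 to 6.10, 6.13 and 5.90 (1.31 ± 0.16, adjusted p = 0.00066), and Isg20, an exonuclease gene, from 4.78, 5.35 and 4.62 to 6.28, 6.50 and 6.01 (1.35 ± 0.20, adjusted p = 0.0015). In both the groups did not overlap, and replicate 2 of 12 weeks was the nearest to 60 weeks. Stat2, a transcription factor gene of the response, rose by 0.85 (adjusted p = 0.0052), Ddx58, the RNA sensor RIG-I, by 0.67 (adjusted p = 0.0064) and Dtx3l, a ubiquitin ligase, by 0.72 (adjusted p = 0.0079). Oas1a and Rsad2 did not pass (0.34, adjusted p = 0.61, and -0.21, adjusted p = 0.56). Without replicate 2 of 12 weeks, 5 genes rose and 5 fell and the median was 0.03. Of 23 members outside the chromosomes shifted in any treated group, 3 rose and 2 fell.

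Class I genes of antigen presentation were called about as often as all genes (39.1%). Of 15 tested, 5 rose and 1 fell, against 21.1% and 18% of all genes (median 0.22). Without replicate 2 of 12 weeks, 5 rose and 4 fell. H2-T23, a non-classical class I gene, rose by 0.42 (adjusted p = 0.0075) and Psmb8, of the immunoproteasome, by 0.85 (adjusted p = 0.012). Tap1, the peptide transporter, rose by 0.89 (adjusted p = 0.0092) and H2-M3, which presents bacterial peptides, by 0.89 (adjusted p = 0.017). The calls of Tap1 (adjusted p = 0.064) and H2-M3 (adjusted p = 0.12) were lost with the slide row as a block, that of H2-M3 also without replicate 1 (adjusted p = 0.058) or 3 (adjusted p = 0.062) of 12 weeks, and that of H2-T23 with quantile normalization (0.17, adjusted p = 0.28). Tapbpl, a relative of tapasin, fell by 1.20 (adjusted p = 0.0020). Of 5 class II genes, H2-Eb1, a chain of the class II molecule, rose from -2.75, -2.33 and -2.34 to 0.51, 0.60 and 0.24 (2.92 ± 0.41, adjusted p = 0.0011), and H2-DMb1, of the peptide loader, from -0.21, 1.27 and 0.07 to 2.04, 2.50 and 1.87 (1.76 ± 0.35, adjusted p = 0.0056). Both were separate from 12 weeks on every array. H2-Ab1, H2-DMa and Cd74, the other 3, did not pass (0.05, -0.54 and 0.39), but without replicate 2 of 12 weeks H2-DMa was called lower (-0.83, adjusted p = 0.0013).

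Of 26 markers of mature colonocytes, the absorptive cells of the colon surface, 15 fell, 3 rose and 8 did not pass, against 18% of all genes lower, with a median of -0.93. The number that rose was 1 without replicate 1 of 12 weeks or replicate 2 of 60 weeks. The median level of the list was 2.14, 0.01 and 1.98 at 12 weeks and -1.64, -1.40 and -0.85 at 60 weeks. Every 60-week array was lower than every 12-week array, and replicate 2 of 12 weeks lay between the others and 60 weeks. Without it 17 fell, and with the slide row as a block 12. Slc5a8, which encodes an importer of short-chain fatty acids, read 2.29, -0.41 and 1.90 at 12 weeks and background levels at 60 weeks, at least 65.4-fold lower (adjusted p = 4.3e-05). Car1 read 6.42, 2.37 and 7.40 against -1.58, -1.13 and -1.39 (-6.76 ± 1.16, adjusted p = 0.0029), or -8.28 without replicate 2 of 12 weeks. Krt20, the keratin of the mature surface, read 4.70, 2.59 and 5.18 against 0.68, 1.05 and 0.88 (-3.29 ± 0.57, adjusted p = 0.0030), or -4.07 without that array. In each of these the groups were separate even with replicate 2.

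Other colonocyte genes fell as well. Tmigd1, an adhesion protein of the brush border, was at least 31.8-fold lower (adjusted p = 0.00092), and Mep1a, a metalloprotease of that border, went from 0.85, -0.33 and 1.20 to -3.71, -2.72 and -3.34 (-3.83, adjusted p = 0.00044). Clca4a, a chloride channel accessory gene, fell by 3.25 (adjusted p = 0.00079). Guca2a and Guca2b, which encode guanylin and uroguanylin and are named after their values were seen, fell by 6.75 (adjusted p = 0.0036) and were at least 13.7-fold lower (adjusted p = 0.00099). Against this, B4galnt2, a glycosyltransferase, rose from -3.49, -4.72 and -4.36 to 0.80, 0.68 and 1.46 (5.17 ± 0.34, adjusted p = 1.8e-05). Car4 and Aqp8, a membrane carbonic anhydrase and a water channel, did not pass (0.05, adjusted p = 0.80, and -0.38, adjusted p = 0.44). Slc26a3, the chloride exchanger, was too dim to be tested.

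**Figure D4:**
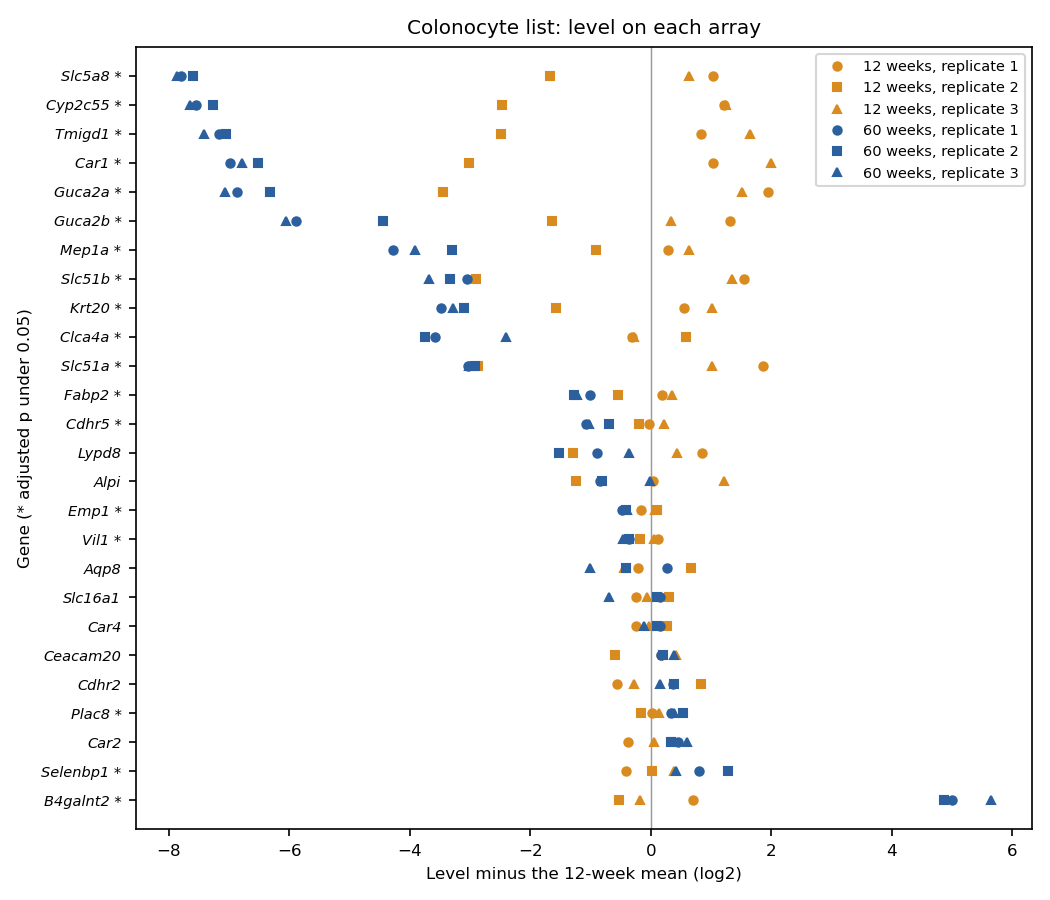
Level of each of the 26 colonocyte genes on the 6 arrays, minus the gene's 12-week mean (log2), ordered by the difference; orange is 12 weeks, blue is 60 weeks, the symbol gives the replicate, and an asterisk marks an adjusted p under 0.05. For many of the genes at the top, such as Car1 and Krt20, the orange square (replicate 2 of 12 weeks) lies below the other orange symbols and above the 3 blue ones.

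Transcription factors of intestinal identity moved as well. Of 19 tested, 9 fell and 3 rose, against 18% and 21.1% of all genes, with a median of -1.08. The number that rose was 1 without replicate 1 of 12 weeks or replicate 1 of 60 weeks. Hnf4a, which drives enterocyte genes, went from 5.91, 5.76 and 6.0 to 4.34, 4.59 and 4.63 (-1.37 ± 0.11, adjusted p = 5.5e-05). The related GATA factors moved in opposite directions: Gata6 fell from 2.38, 1.85 and 2.22 to -0.24, 0.03 and -0.38 (-2.35 ± 0.16, adjusted p = 2.1e-05), while Gata4 rose from -1.96, -2.31 and -1.81 to 1.37, 1.33 and 1.39 (3.40 ± 0.20, adjusted p = 1.0e-05). In all 3 the groups were separate. Gata4, a factor of the small intestine, was near background at 0 weeks (-4.54, -4.81 and -4.05). Onecut2 fell by 3.36 (adjusted p = 2.1e-05), and Cdx2, the caudal factor of hindgut identity, did not pass (-0.47, adjusted p = 0.094). Outside the chromosomes shifted in any treated group, 5 of 11 fell.

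Stem cell genes had no common direction, with 2 higher and 3 lower of 22 tested (against 21.1% and 18% of all genes) and a median of 0.13. Without replicate 2 of 12 weeks, 6 were higher and 4 lower. Lgr5, the receptor that marks crypt stem cells, read -1.72, 1.43 and -0.13 at 12 weeks and 2.40, 2.99 and 2.46 at 60 weeks, near or above its 0-week levels of 2.0, 1.72 and 1.91. It rose by 2.75 ± 0.65 (adjusted p = 0.012), by 1.96 without replicate 1 of 12 weeks and by 3.54 without replicate 2. The gene lies on chromosome 10. Ascl2, a transcription factor of the same cells, moved the other way: it was above background at 12 weeks (-2.12, -2.50 and -1.99) and on no 60-week array, at least 5.83-fold lower (adjusted p = 0.00011). Clca4b fell by 4.29 (adjusted p = 0.00077) and Tert, the telomerase subunit, by 1.15 (adjusted p = 0.0015). Rnf43, which restrains Wnt receptors, was called higher (0.50, adjusted p = 0.031), a call that 12 of 24 alternatives gave. Axin2, a Wnt target, did not pass (0.14, adjusted p = 0.48).

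Secretory lineages were only partly visible, and their counts are read against 21.1% of all genes higher and 18% lower. Of 14 goblet cell genes tested, 4 rose and 2 fell, or 5 rose and 4 fell without replicate 2 of 12 weeks. Creb3l4, a secretory transcription factor, rose by 0.79 (adjusted p = 0.0027), and Retnlb, a goblet cell product that kills bacteria, was at background at 12 weeks, above it on 2 of 3 arrays at 60 weeks and at least 1.30-fold higher (adjusted p = 0.0050). Galnt12, which starts mucin sugar chains, fell from 3.48, 3.61 and 3.60 to 2.08, 1.94 and 2.34 (-1.45, adjusted p = 0.00027) and Sytl2, of vesicle transport, by 2.04 (adjusted p = 8.8e-05). Muc13 did not pass (0.10, adjusted p = 0.71). No named probe measured Muc2, and Tff3 was too dim. Of 7 enteroendocrine genes 1 rose and 1 fell. Sct, the secretin gene, fell from -0.56, 0.06 and -0.08 to -3.48, -4.18 and -4.45 (-3.84 ± 0.25, adjusted p = 1.8e-05). Nts, encoding neurotensin, stayed high in both groups, at 6.08, 6.81 and 6.24 and at 6.38, 6.29 and 7.06 (0.20, adjusted p = 0.61), against background at 0 weeks. Of 5 tuft cell genes 2 rose, Alox5ap, of leukotriene synthesis, by 2.05 (adjusted p = 2.5e-05) and Gfi1b by 0.84 (adjusted p = 0.0042), the latter not with normexp background correction (0.29, adjusted p = 0.075).

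Of 19 genes of keratins and stratified epithelium, 6 fell and 1 rose, against 18% and 21.1% of all genes. Without replicate 2 of 12 weeks 8 fell and 3 rose. Krt6a, a keratin of wounded and stratified epithelium, was above background at 12 weeks alone (-1.33, -1.34 and -1.19) and at least 11.2-fold lower at 60 weeks (adjusted p = 5.9e-06). Lor, encoding the cornified envelope protein loricrin, fell from 5.40, 3.65 and 4.94 to 0.78, 0.56 and 1.37 (-3.76, adjusted p = 0.00033), and Krt14, a basal keratin, by 1.14 (adjusted p = 0.0030). Krt23 rose by 0.79 (adjusted p = 0.0063). In a list of 20 genes of the fetal-like state seen in regenerating gut epithelium, 2 rose and 4 fell, against 21.1% and 18% of all genes. Without replicate 2 of 12 weeks 6 rose and 5 fell, and 2 fell without replicate 1 of 60 weeks. The genes called include the matrix protein genes Ccn1, which fell by 2.0 (adjusted p = 0.00024), and Ccn2, which rose by 1.33 (adjusted p = 0.00028). Both are targets of the YAP coactivator. Ly6a, the marker Sca-1, was bright in both groups and did not pass (0.42, adjusted p = 0.059), but did without replicate 2 of 12 weeks (adjusted p = 0.00064). Vim, the filament gene of mesenchymal cells, was above background at 12 weeks alone (-2.71, -1.86 and -2.92) and at least 4.83-fold lower at 60 weeks (adjusted p = 9.5e-06). The epithelial adhesion genes Cdh1 and Epcam did not pass (0.07, adjusted p = 0.61, and 0.22, adjusted p = 0.18).

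Genes of signals between cells changed in several pathways. In the BMP pathway, which promotes maturation at the crypt top, the ligand genes Bmp2 and Bmp4 fell: Bmp2 from 0.45, 1.04 and 0.65 to -2.19, -1.85 and -2.61 (-2.93 ± 0.21, adjusted p = 2.8e-05), and Bmp4 from 2.07, 1.86 and 2.02 to -0.26, -0.45 and -0.11 (-2.26 ± 0.13, adjusted p = 1.0e-05). The target genes Id1 and Id3 fell by 2.22 (adjusted p = 0.00012) and 2.72 (adjusted p = 3.8e-05), and Smad6, an inhibitor of the pathway, rose from -4.70, -6.11 and -4.45 to -2.26, -2.51 and -2.43 (2.69, adjusted p = 0.0010). All 5 were separate between the groups. In the whole TGF-beta and BMP list of 23 genes, 6 rose and 7 fell, against 21.1% and 18% of all genes. Its median was 0.05, and -0.07 with quantile normalization.

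Of 24 Wnt pathway genes 6 rose and 6 fell, against 21.1% and 18% of all genes. Without replicate 1 or 3 of 12 weeks 2 rose. The ligand genes Wnt10a and Wnt5b fell, Wnt10a from -0.10, 1.04 and 0.23 to background (at least 35.9-fold, adjusted p = 7.9e-06) and Wnt5b by 3.12 (adjusted p = 2.4e-05), and the receptor gene Fzd3 was at least 4.94-fold lower (adjusted p = 3.3e-07). Another receptor gene, Fzd2, rose by 2.01 (adjusted p = 0.00068), and the ligand gene Wnt6 was at background at 12 weeks, above it on 2 of 3 arrays at 60 weeks and at least 1.58-fold higher (adjusted p = 0.0029). Ligands and receptors thus changed in both directions. In the EGF family 3 of 11 rose and 3 fell, against 21.1% and 18% of all genes. In this family 1 rose without replicate 3 of 12 weeks or replicate 1 or 2 of 60 weeks, and 5 fell without replicate 2 of 12 weeks. Nrg1, a ligand of the ErbB3 and ErbB4 receptors, was at least 5.27-fold lower (adjusted p = 0.00018) and Btc fell by 0.65 (adjusted p = 0.0022), while Errfi1, a feedback inhibitor of the EGF receptor, rose by 0.53 (adjusted p = 0.0052). Of 14 Notch genes 2 rose and 0 fell, against 21.1% and 18% of all genes. The glycosyltransferase gene Lfng rose by 0.90 (adjusted p = 0.0061) and the ligand gene Dll1 by 0.73 (adjusted p = 0.0088). Of 17 junction genes 2 rose and 5 fell, against 21.1% and 18% of all genes. Cldn2, a pore-forming claudin, fell by 3.05 (adjusted p = 0.00089) and Cldn8, a sealing one, by 3.93 (adjusted p = 0.010), or by 2.87 without replicate 1 of 60 weeks. Cldn23 rose by 1.03 (adjusted p = 0.0017) and the scaffold gene Tjp3 by 0.67 (adjusted p = 0.0026).

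Of the lists plotted, that of glycolysis and of the response to low oxygen had the highest median. Of 35 tested 17 rose and 1 fell, against 21.1% and 18% of all genes, with a median of 0.58, which was 0.25 with quantile normalization. P4ha1, a collagen prolyl hydroxylase induced by low oxygen, went from -0.51, 0.72 and -0.25 to 1.77, 2.11 and 1.51 (1.81 ± 0.30, adjusted p = 0.0026), and its relative P4ha2 from 3.45, 4.16 and 3.59 to 4.85, 5.12 and 4.53 (1.10, adjusted p = 0.0048). Hk1, the first enzyme of glycolysis, rose by 0.74 (adjusted p = 0.0063) and the phosphofructokinase gene Pfkl by 0.68 (adjusted p = 0.0035). The groups of these genes were separate, with replicate 2 of 12 weeks the nearest to 60 weeks. Ldhb, a lactate dehydrogenase subunit, fell from 0.40, 0.20 and -0.05 to -2.39, -2.78 and -2.45 (-2.72 ± 0.14, adjusted p = 6.4e-06). P4ha1, Pfkl and Hk1 lie on chromosome 10, and without the genes of chromosomes 10, 19 and Y 13 rose, of fewer tested. The count was 11 without replicate 3 of 12 weeks, 10 without replicate 2 of 60 weeks and 0 within the shared row.

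Oxidative phosphorylation is run by the respiratory chain of mitochondria, and of 75 of its nuclear genes 16 rose and 4 fell, against 21.1% and 18% of all genes, with a median of 0.15. With quantile normalization 8 rose and 16 fell and the median was -0.06. Ndufa6, of complex I, rose from 5.45, 5.82 and 5.47 to 6.45, 6.41 and 6.58 (0.90 ± 0.13, adjusted p = 0.0012), while another subunit of that complex, Ndufab1, fell by 1.0 (adjusted p = 0.0026). Without replicate 2 of 12 weeks 33 rose, without replicate 1 8 and without replicate 3 7. Without replicate 3 of 60 weeks 9 rose and 9 fell, and without replicate 1 of 60 weeks 2 fell. Of 33 genes of cholesterol and fatty acid synthesis 0 rose and 5 fell, against 21.1% and 18% of all genes. Scd1, the stearoyl-CoA desaturase, fell by 2.49 (adjusted p = 0.0012). Fasn, the fatty acid synthase, fell by 0.83 (adjusted p = 0.0041). Without replicate 2 of 12 weeks 19 of these 33 rose and 5 fell, so the count of rises in this list rests on that array. In the unfolded protein response 9 of 28 rose and 4 fell, against 21.1% and 18% of all genes. The number that rose was 14 without replicate 2 of 12 weeks and 4 without replicate 1 of 12 weeks or replicate 2 of 60 weeks. It was 5 without replicate 3 of 12 weeks or replicate 1 of 60 weeks. The chaperone genes Hsp90b1 and Pdia6 rose by 1.21 (adjusted p = 0.0020) and 1.09 (adjusted p = 0.0027), and Chac1, induced by amino acid stress, fell by 2.09 (adjusted p = 0.0076).

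Genes that handle foreign compounds fell more often than they rose, 14 against 6 of 28 tested, with a median of -0.69. Of all genes 18% were lower and 21.1% higher. The glutathione transferase gene Mgst2 went from 5.62, 5.60 and 5.71 to 2.74, 2.80 and 2.79 (-2.87 ± 0.13, adjusted p = 2.2e-06), with hardly any spread in either group. The glucuronosyltransferase gene Ugt2b34 fell by 3.76 (adjusted p = 0.00010), the cytochrome gene Cyp3a13 by 2.45 (adjusted p = 8.0e-05) and Gsta2 by 1.58 (adjusted p = 0.00034). Ahrr, the repressor of the aryl hydrocarbon receptor, was above background at 12 weeks alone and at least 3.88-fold lower at 60 weeks (adjusted p = 0.00039). The cytochrome genes Cyp2c65 and Cyp2c66, which are adjacent on chromosome 19, read 1.94, -1.63 and 2.19 and 2.40, -0.94 and 2.63 at 12 weeks. At 60 weeks they read -5.32, -4.43 and -4.59 and -3.56, -3.54 and -3.68. They fell by 5.61 (adjusted p = 0.0020) and 4.96 (adjusted p = 0.0026), or by 6.85 and 6.11 without replicate 2 of 12 weeks, which was low for both. The genes tested on either side, Cyp2c55 and Cyp2c29, looked up after these values were seen, were lower too (adjusted p = 0.0011 and 0.018). Cyp2c38, beyond Cyp2c29, did not pass (0.14, adjusted p = 0.58). The genes that fell went against the direction of their chromosome, and as close relatives they may share signal. Of 21 antioxidant genes under the factor NRF2 4 rose and 7 fell, against 21.1% and 18% of all genes (median 0.12, but -0.19 with quantile normalization). Without replicate 2 of 12 weeks 8 rose, without replicate 1 or 3 of 12 weeks or replicate 1 or 2 of 60 weeks 2 rose, and without replicate 3 of 12 weeks 4 fell. Slc7a11, the cystine importer, fell by 2.48 (adjusted p = 0.0019), and Gclm and Gclc, both subunits of the enzyme that starts glutathione synthesis, by 1.0 (adjusted p = 0.0014) and 0.70 (adjusted p = 0.0062).

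**Figure D5:**
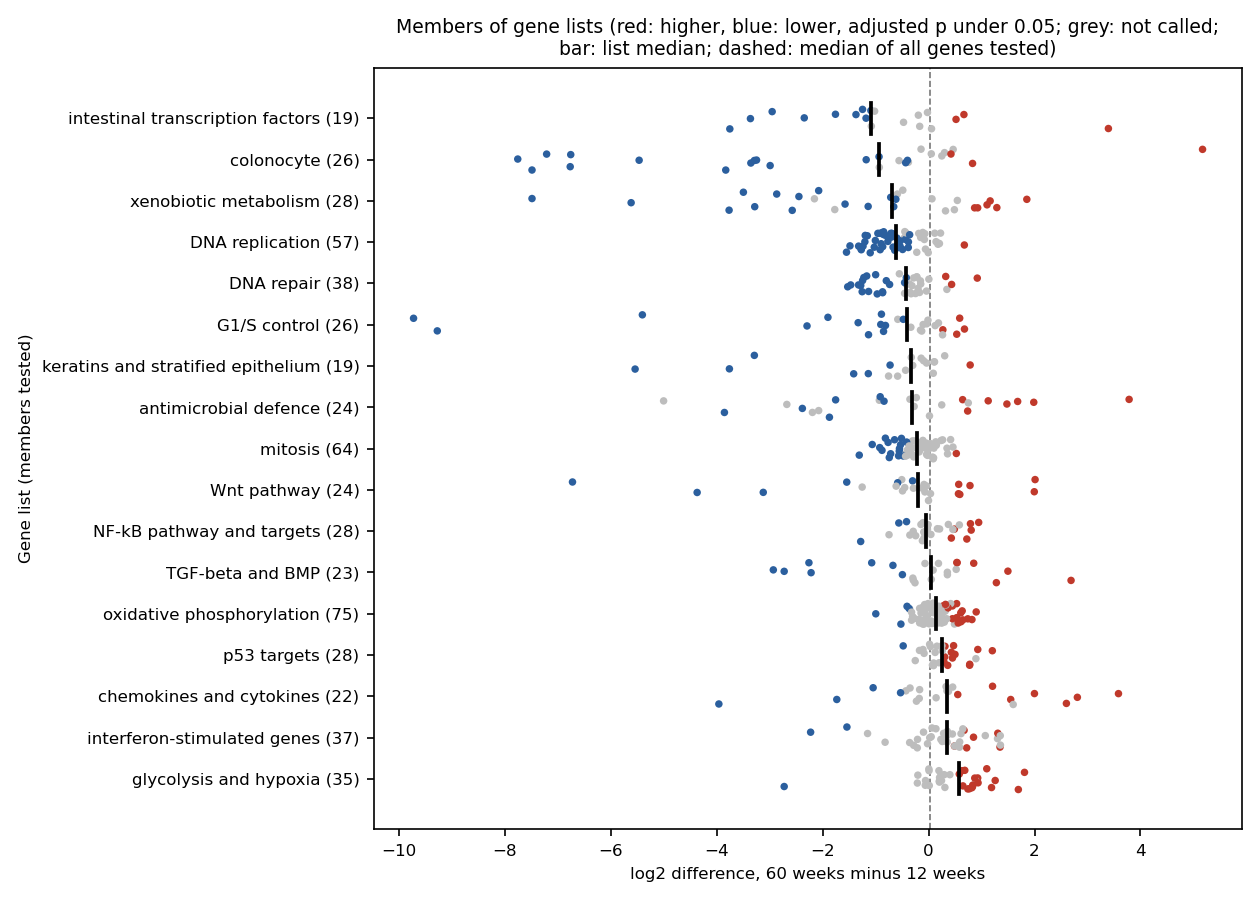
Difference at 60 weeks minus 12 weeks (log2) of every tested member of 17 gene lists, with the number tested in parentheses; red and blue points have an adjusted p under 0.05, grey points do not, black bars are list medians and the dashed line is the median of all genes tested, 0.02. The medians run from -1.08 for intestinal transcription factors to 0.58 for glycolysis and hypoxia, and most lists hold members of both colours.

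Many defining markers of other cell types stood at background in both groups, and others did not. Of 9 fibroblast markers 8 were above background on no 12-week array and 6, among them Dcn, Lum, Pdgfra and Pdgfrb, on no 60-week array, and their summed intensity was 0.180 to 0.257 at 12 weeks and 0.282 to 0.357 at 60 weeks, relative to the 75th percentile. Col1a1, a collagen chain, was at least 3.41-fold higher (adjusted p = 0.00078), at -3.41, -3.27 and -2.76, near its 0-week levels of -3.54, -3.0 and -3.24. Of 7 named leukocyte markers Ptprc and Tyrobp were among those at background on every array, and the sum was 24.3 to 48.0 at 12 weeks and 27.3 to 34.4 at 60 weeks, carried by Itgam, Csf1r and Cd3e. Csf1r fell by 0.62 (adjusted p = 0.0016) and differed between its probes (-1.68 to -0.11). Endothelial markers summed to 6.91 to 8.99 and 8.72 to 11.5, with Cdh5 and Tek at background and Vwf higher by 1.99 (adjusted p = 0.0025). Smooth muscle markers summed to 0.0801 to 0.102 and 0.145 to 0.195, with Myh11, Des and Actg2 at background and Cnn1 at least 2.38-fold higher (adjusted p = 0.00012). Markers of neurons and glia summed to 0.607 to 0.729 and 1.23 to 1.41, with Gfap and S100b at background and Tubb3 higher by 3.22 (adjusted p = 4.6e-06). The part of these differences in the other results was not tested.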

How the data were processed

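RNA of 9 mouse colon organoid samples (3 each at 0, 12 and 60 weeks) was measured on Agilent single-colour arrays. Per the file headers, the authors quantified the scans with Agilent Feature Extraction 10.7.3.1, and the deposited intensity of each spot is background-subtracted and not scaled between arrays. Of 55681 non-control probes, 42530 also have a signal in the table of values the authors deposited, which is the same intensity over 1 constant per array. Its column medians lie between 0.0582 and 0.0733 and this table served as an alternative only. All its columns were matched to a sample (0 left over).

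Outlier spots (117 to 163 of 59305 per array) were treated as missing and no spot was saturated (0 on every array). Repeat spots of 1 probe were averaged. Each array's 75th percentile, an intensity of 412 to 624, was set to a log2 level of 0. Between 49.2% and 52.7% of probes stood well above background per array, and precision is limited by 3 arrays per group. A RefSeq accession named each probe through the GRCm38.p6 table (27235 with 1 symbol, 0 with several, 28446 with none), and each gene by its brightest probe. Of 3586 genes with several passing probes, 34 had probes called in both directions. Of 10974 tested probes without a name, 1777 were higher and 866 lower. The model, limma 3.58.1 in R 4.3.3 (lmFit and eBayes, two-sided), took all 9 arrays and had no replicate block. Same-numbered arrays of the 2 groups did not deviate together (correlations -0.08, 0.04 and 0.03). Deviations from a mean of 3 arrays depend on each other, and the labels do not explain the numbers. Whether the numbers pair the arrays is therefore not settled. In simulated data with 13798 genes, the fit recovered 13 of 67 changes of log2 0.5, 37 of 67 of 1 and 61 of 66 of 2, with 7 false calls. Few genes were changed there and all groups had equal spread, unlike in the data. These rates and the count of false calls therefore do not carry over to the data.

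Named genes are the 12 largest rises and falls among called, non-overlapping genes above background in both groups, the 8 largest bounds each way, up to 5 members per list by adjusted p, and a fixed panel. Of the panel, Duox2 had no named probe, and Chga, Ccl20 and Xist were too dim. Other genes are said to be named after their values were seen. Some genes that this rule names are not reported here. The comparison, its members and the lists were chosen with earlier results of these data known, and some alternatives were added after seeing the data.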

Additional observations from a re-analysis of the deposited data

How the results depend on the processing

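Across 24 alternatives the number of genes called (5398) was 9977 with array weights, 3571 with the slide row as a block and 744 within the shared slide row, and 3662 to 7087 when 1 array was left out. With the replicate block it was 5304, and among named genes that block ended the calls of Erbb3 (adjusted p = 0.063) and Reg3b (adjusted p = 0.058), added that of Krt18 (adjusted p = 0.042) and changed no other. Other settings gave 3838 (only the 6 arrays compared) to 5468 calls. The split between higher and lower was 2610 and 2777 with quantile normalization and 2548 and 2920 with the 75th percentile over bright probes, against 2915 and 2483. Of 192 named genes that were called, 97 were called in every alternative and 94 lost the call within the shared row, which holds 2 arrays against 2.

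Within that row 12 replication genes were lower, 0 p53 targets and 0 glycolysis genes higher, 2 colonocyte genes and 4 intestinal transcription factors lower. The p53 count of 12 was 7 with quantile normalization, 7 without a filter on dim probes, 5 with only the 6 arrays compared, 19 with array weights, 5 with the row block and 4 to 13 with 1 array left out. Without chromosomes 4, 5, 10, 12, 14, 19 and Y it was 7 of 19 tested, beside 12 of 28 with them. The glycolysis count of 17 was 11 with only the 6 arrays and 10 to 19 with 1 array left out. Colonocyte genes lower (15) were 8 among probes above background on all 6 arrays and 4 in the deposited value table, which holds fewer probes. Intestinal transcription factors lower (9 of 19) were 5 in the value table and 5 of 11 tested without the chromosomes named above. Leaving out chromosomes 10, 19 and Y, chosen after seeing the data, gave 38 replication genes lower.

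The median of chromosome 10 (0.35) was 0.30 with normexp background correction, 0.29 with quantile normalization, 0.29 with the percentile over bright probes and 0.18 without a filter. That of chromosome 19 (0.44) was 0.34, 0.38, 0.38 and 0.25 under the same settings, 0.40 with the slide as a block, 0.39 with the row as a block, 0.39 within the shared row and 0.40 to 0.44 with 1 array left out. With array weights, which gave replicate 2 of 12 weeks a weight of 0.125 and replicate 1 of 60 weeks 8.54, the differences of Aqp8 (0.57), H2-Ab1 (-1.41), Itgam (-0.69) and Rsad2 (0.51) reversed. Differences of genes dim in 1 group were smaller with normexp, which adds an offset of 50 to each intensity: Cdkn2b -5.70, Cdkn2a -5.12, Smad6 1.07, Il23a 1.95 and Sct -2.28. The cause of the other moves was not tested.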
